A study of Mus musculus with 33 samples.

Results

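The cardiac sarcomere genes followed here are 10 of the 24391 genes of the count table: Myh6, Myh7, Myl3, Myl4, Myl7, Tnnt2, Tnnc1, Tnni1, Actc1 and Ttn. They were taken by name. All 10 had a row. Their RNA was counted by polyA RNA-seq of mouse embryonic stem (ES) cells, in 12 libraries of a series of 33 samples. The cells were hybrids of the strains CAST/Ei and 129/Sv/Jae and were either wildtype (WT) or RepB, whose name refers to Repeat B of the noncoding RNA Xist and whose edit the labels do not describe. Undifferentiated cells (day 0) had been kept on irradiated feeder fibroblasts with LIF. The feeders were then taken off, the cells formed embryoid bodies in serum-containing medium without LIF, and the bodies were later plated on gelatin. Both lines were sampled at days 0, 5, 6, 7, 8 and 10, with 1 library per line and day, so there were no replicate cultures, and each line stands for its genotype alone.

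The sarcomere is the contractile unit of striated muscle. Myosin heavy chains with their bound light chains form the thick filament and pull on actin of the thin filament. Calcium that binds troponin C frees the thin filament from inhibition by troponin I, while troponin T ties the troponin complex to tropomyosin, and titin runs from the Z-disc to the M-line as a spring and scaffold. In ES cells that differentiate as embryoid bodies, these genes come on with the appearance of beating cardiomyocytes. Several members are shared with other muscle: Myh7, Myl3, Tnnc1 and Tnni1 also serve slow skeletal muscle, and Actc1 is used in embryonic skeletal muscle.

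The promoter sequences show what some of the members have in common upstream of the gene. RefSeq windows on GRCm38.p6, from 250 bases before to 49 after the start base, were matched for all 10 members (13 windows, since Myh7, Tnnt2 and Tnni1 have 2 each). The counts themselves use mm9, and no coordinate is carried between the builds. The CArG box, the binding motif of serum response factor, was found in the windows of 3 members, Actc1, Myl7 and Myl3, whereas 1.63% of all 32851 windows hold it. The MEF2 box, the motif of another muscle transcription factor family, was found in Ttn alone among the members and in 0.557% of all windows. The 200 bases before the start of these 4 genes are given because these are the muscle motifs that few promoters hold. Capitals mark each match, on either strand, of the CArG box, the MEF2 box, the TATA motif, the GATA cores or the MCAT core, whose letters follow.
Actc1, chr2:114052876-114053075, minus strand: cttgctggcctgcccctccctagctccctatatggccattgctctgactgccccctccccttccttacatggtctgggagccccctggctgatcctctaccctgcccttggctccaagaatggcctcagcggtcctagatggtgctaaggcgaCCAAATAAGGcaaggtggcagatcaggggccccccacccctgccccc
Myl7, chr11:5898783-5898982, minus strand: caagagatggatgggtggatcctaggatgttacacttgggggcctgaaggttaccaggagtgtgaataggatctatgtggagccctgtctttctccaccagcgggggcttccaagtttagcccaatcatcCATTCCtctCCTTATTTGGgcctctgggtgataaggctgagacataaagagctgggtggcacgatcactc
Myl3, chr9:110763478-110763677, plus strand: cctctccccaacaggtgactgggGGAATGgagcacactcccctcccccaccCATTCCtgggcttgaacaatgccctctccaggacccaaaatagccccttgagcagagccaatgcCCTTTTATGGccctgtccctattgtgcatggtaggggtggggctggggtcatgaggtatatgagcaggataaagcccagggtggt
Ttn, chr2:76982548-76982747, minus strand: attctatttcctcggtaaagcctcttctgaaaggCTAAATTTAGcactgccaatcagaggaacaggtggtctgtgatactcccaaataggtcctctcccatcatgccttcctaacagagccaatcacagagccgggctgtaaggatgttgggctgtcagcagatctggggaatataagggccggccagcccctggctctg

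Counting the start base as 0, the CArG box lay at -47 to -38 in Actc1, at -61 to -52 in Myl7 and at -85 to -76 in Myl3, and the MEF2 box at -166 to -157 in Ttn. CATTCC, the MCAT core bound by TEAD factors, was found in 7 members against 14.7% of all windows, and in Myl7 it lay next to the CArG box, at -70 to -65. The shorter motifs are found in larger shares of all windows. TATAAA was found in 2 members (13.6% of all windows), in both after the start base, at 1 to 6 in Myh6 and 33 to 38 in Actc1. All positions are from the start base of the RefSeq window. The GATA core AGATAA was found in 1 member (11.2%) and AGATAG in 2 (8.95%). The NKX2-5 core AAGTG was found in 5 (46.4%) and the E-box CANNTG in 9 (72.3%). Both strands were searched. The CArG and MEF2 boxes did not overlap another marked motif. A match of letters is a description of the window and not a binding site.

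The smallest library, RepB day 8, held 3594551 counts and the largest, WT day 5, 17773138. WT libraries were 1.11 times as deep as RepB libraries at day 0 and 2.07 to 3.35 times as deep from day 5 on. Levels are given as CPM, each gene's counts relative to the total of its library, and 3 counts, taken as the floor, amounted to 0.169 to 0.835 CPM. Exact 95% intervals cover counting error only. The cells lost their undifferentiated state along the course: the summed level of 8 naive pluripotency genes fell from 5702 to 329 CPM in WT and from 6553 to 477 CPM in RepB between days 0 and 10. In bulk RNA of this kind, fewer cells of a type and less RNA per cell cannot be told apart.

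Together the 10 members made up 28.1 CPM in WT and 30.9 CPM in RepB at day 0. They then stood at 38.0, 40.5, 50.5, 176 and 829 CPM in WT at days 5, 6, 7, 8 and 10, and at 38.1, 55.6, 52.8, 92.1 and 430 CPM in RepB. By day 7 the sum had gone from 28.1 to 50.5 CPM in WT and from 30.9 to 52.8 CPM in RepB, while single members rose or fell. The main rise came between days 7 and 10 and ended lower in RepB. The levels by gene are plotted on a log scale.

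**Figure D1:**
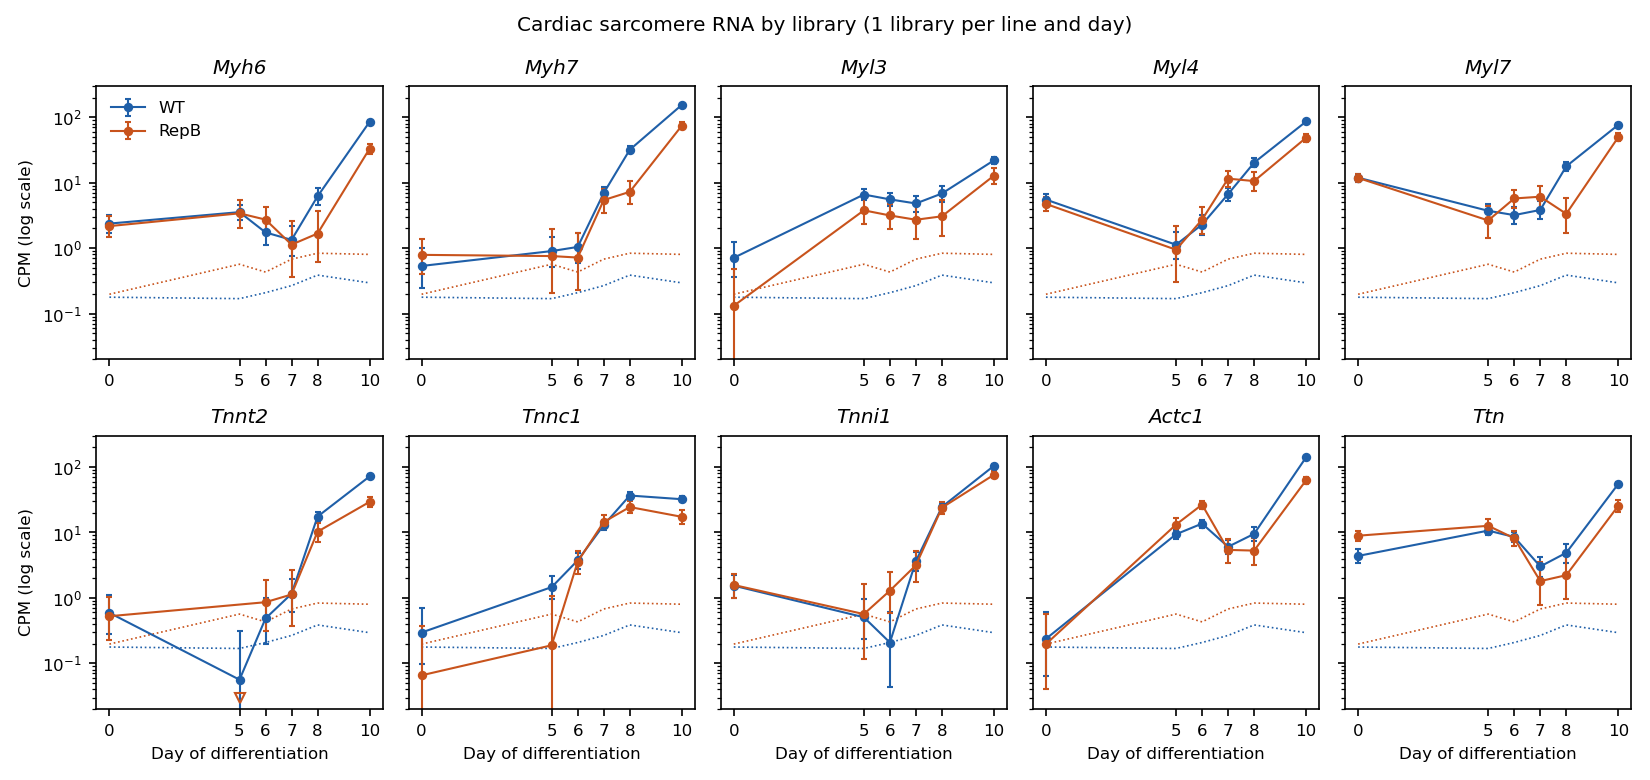
CPM (log scale) of each cardiac sarcomere gene by day of differentiation, with 1 library per point, WT in blue and RepB in orange. Bars are exact 95% Poisson intervals, dotted lines mark 3 counts in each library, and the open triangle stands for 0 counts (Tnnt2, RepB day 5). At day 10 all 10 genes lay higher in WT than in RepB, and Tnnc1 was the only one past its peak.

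Myh6 encodes the alpha myosin heavy chain, the fast isoform of atria and of the adult mouse heart. It stood at 2.37, 3.54, 1.73, 1.33, 6.18 and 85.1 CPM in WT at days 0, 5, 6, 7, 8 and 10, and at 2.17, 3.40, 2.72, 1.13, 1.67 and 33.1 CPM in RepB. It was thus low up to day 7 and rose late in both lines. Before that it fell from day 5 to day 7. In WT the intervals of these days lay apart (2.72 to 4.535 and 0.747 to 2.20 CPM), and in RepB they overlapped. Myh7 encodes the beta heavy chain of the embryonic ventricle and of slow skeletal fibres. It stood at 0.53, 0.90, 1.04, 6.94, 31.8 and 154 CPM in WT and at 0.79, 0.76, 0.72, 5.42, 7.23 and 74.2 CPM in RepB. Its rise began at day 7, before that of Myh6, and WT pulled ahead at day 8.

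Myl3 and Myl4 encode essential light chains, of the ventricle and of slow muscle in the first case and of the atria and the embryo in the other. Myl3 stood at 0.71, 6.58, 5.55, 4.80, 6.83 and 22.0 CPM in WT and at 0.13, 3.78, 3.15, 2.71, 3.06 and 12.8 CPM in RepB. It was the member that lay lower in RepB on each of the 6 days, by a similar ratio on the 5 differentiating ones. Myl4 stood at 5.51, 1.13, 2.29, 6.67, 20.2 and 86.1 CPM in WT and at 4.73, 0.94, 2.72, 11.5, 10.6 and 48.6 CPM in RepB. It was lowest at day 5 and climbed from there, with RepB above WT at day 7 and below it afterwards. Myl7, the atrial regulatory light chain, stood at 11.9, 3.71, 3.19, 3.83, 17.8 and 76.6 CPM in WT and at 11.8, 2.64, 5.73, 6.10, 3.34 and 49.7 CPM in RepB. It had the highest day 0 level among the members, and at day 8 it stood above its day 7 level in WT and below it in RepB.

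Tnnt2, cardiac troponin T and a common marker of cardiomyocytes, stood at 0.59, 0.06, 0.49, 1.16, 17.5 and 72.0 CPM in WT and at 0.53, 0, 0.86, 1.13, 10.3 and 29.4 CPM in RepB. The 0 of RepB at day 5 had an upper limit of 0.696 CPM. Tnnt2 was thus close to the floor up to day 7. Tnnc1, troponin C of heart and slow muscle, stood at 0.30, 1.46, 3.75, 13.0, 36.7 and 32.3 CPM in WT and at 0.07, 0.19, 3.58, 14.5, 24.5 and 17.4 CPM in RepB. It was the earliest troponin to rise and was highest at day 8 in both lines. Tnni1, the slow skeletal troponin I that the embryonic heart uses before Tnni3, stood at 1.54, 0.51, 0.21, 3.65, 24.6 and 105 CPM in WT and at 1.58, 0.57, 1.29, 3.16, 23.9 and 76.4 CPM in RepB. Its levels in the lines were nearly equal at days 7 and 8.

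Actc1, cardiac alpha-actin, stood at 0.24, 9.40, 13.7, 6.05, 9.53 and 141 CPM in WT and at 0.20, 13.2, 26.7, 5.42, 5.29 and 63.0 CPM in RepB. Ttn, titin, stood at 4.38, 10.7, 8.54, 3.03, 4.89 and 55.3 CPM in WT and at 8.93, 12.7, 8.17, 1.81, 2.23 and 25.6 CPM in RepB. These genes had an early maximum at day 5 or 6, a trough at day 7 or 8 and a second, higher level at day 10, in both lines. Relative to the highest day of its line, Actc1 reached 9.7% at day 6 in WT and 42% in RepB, and Ttn 19% and 49% at day 5. The percentages of each gene's highest day are drawn as a colour map.

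**Figure D2:**
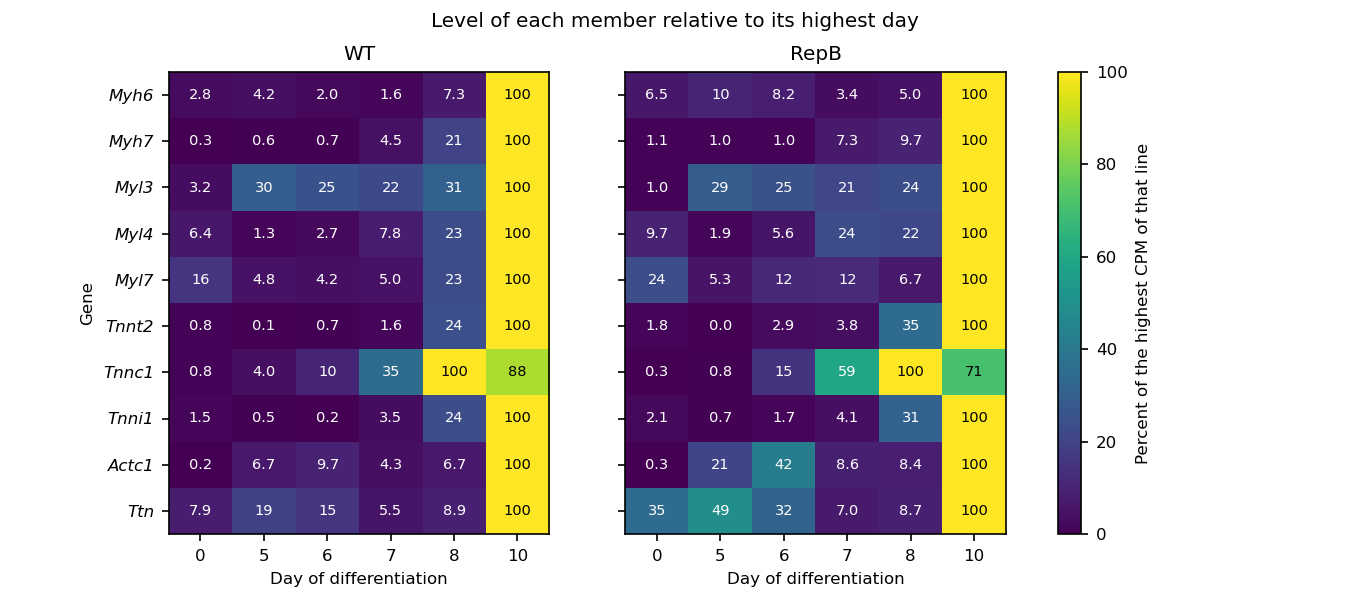
Level of each gene on each day as a percentage of its highest CPM in the same line (colour and printed value), for WT at the left and RepB at the right. 9 of the 10 genes were highest at day 10 in both lines, Tnnc1 was highest at day 8, and Actc1 and Ttn show the early maximum.

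The course was tested with edgeR's quasi-likelihood test, with p-values adjusted by Benjamini-Hochberg over all 15179 genes tested and a threshold of 0.05. All 10 members passed the low-count filter of this fit. Days were blocks for the comparison of the lines, whose p measures how steady a difference was over 1 time course. Between days, p sets a change against how much the ratio of the lines varied over days 5 to 10, not against replicate cultures. It does not measure how steady a change was over the days averaged. Across days 5 to 10, 7 members stood higher than at day 0 and 0 lower, where 31.7% of all genes were higher and 32.3% lower. Their median change was 1.67 on the log2 scale, against 0.01 for all genes. Actc1 rose by 6.17 ± 0.61 (SE, log2 scale), Tnnc1 by 5.78 ± 0.48 and Myl3 by 4.2 ± 0.31. The values of Actc1 and Tnnc1 rest on few counts at day 0, 4 in WT and 3 in RepB for Actc1 and 5 and 1 for Tnnc1. Myh7 rose by 3.16 ± 0.37, Tnnt2 by 1.69 ± 0.64 (adjusted p = 0.0364), Tnni1 by 1.65 ± 0.33 and Myh6 by 1.00 ± 0.35 (0.0232). Myl4 (0.59, adjusted p = 0.0797), Ttn (0.42, 0.153) and Myl7 (-0.44, 0.244) did not pass. Without day 10, the calls of Myh6, Tnni1 and Tnnt2 were lost, 4 members stood higher, Myl7 was called lower, and Myl4 and Ttn stood at -0.17 and -0.137. Without day 8, or after thinning all libraries to the smallest total, the call of Tnnt2 was lost too (adjusted p from 4.34e-05 to 0.946 over its 11 alternatives).

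Steps between neighbouring days, a comparison chosen after values were seen, place the changes in time. From day 0 to day 5, 4 members rose (22.5% of all genes did) and 4 fell (23.7%). Those that rose were Actc1, Myl3 (log2 3.96 ± 0.36), Tnnc1 and Ttn (0.87 ± 0.30, adjusted p = 0.0311). Those that fell were the atrial light chains Myl4 (-2.29 ± 0.46) and Myl7 (-1.88 ± 0.48), Tnni1 (-1.56 ± 0.55, adjusted p = 0.036) and Tnnt2, which went from 10 and 8 counts in WT and RepB to 1 and 0. The calls of Tnni1 and Ttn were lost with limma-voom and with thinning, and that of Tnni1 also without day 7 or day 10 (adjusted p from 0.00447 to 0.323 over its 10 alternatives). Over the same step the summed level of 7 fibroblast and feeder genes such as Col1a1 went from 686 to 62.5 CPM in WT and from 783 to 51.2 CPM in RepB, and their part in the fall of the 4 members was not tested.

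From day 5 to day 6 only Tnnc1 rose (log2 1.79 ± 0.44, adjusted p = 0.0346), against 4.02% of all genes, and 0 members fell, against 1.77%. This call was lost with limma-voom and without day 10 (adjusted p from 0.00459 to 0.0525 over its 9 alternatives). From day 6 to day 7, 4 members rose (5.71% of all genes did): Myh7 by 2.87 ± 0.44, Tnni1 by 2.62 ± 0.53, Tnnc1 by 1.97 ± 0.34 and Myl4 by 1.88 ± 0.41. In that step 2 members fell (3.26% of all genes did), Actc1 (-1.72 ± 0.45, adjusted p = 0.0338) and Ttn (-1.69 ± 0.38, 0.0158). The fall of Actc1 did not pass with limma-voom or after thinning (adjusted p from 0.000435 to 0.0879 over its 9 alternatives).

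From day 7 to day 8, 4 members rose (5.98% of all genes did) and 0 fell (5.85%). Tnnt2 rose by 3.74 ± 0.40 on the log2 scale, Tnni1 by 2.83 ± 0.33, Myh7 by 1.68 ± 0.31 and Tnnc1 by 1.19 ± 0.30. From day 8 to day 10, 9 members rose (11.1% of all genes did) and 0 fell (9.36%). The largest steps were those of Myh6 (3.82 ± 0.39), Actc1 (3.74 ± 0.43) and Ttn (3.45 ± 0.35), followed by Myh7 (2.61 ± 0.26), Myl7 (2.52 ± 0.43), Myl4 (2.12 ± 0.31), Tnni1 (1.92 ± 0.26), Tnnt2 (1.85 ± 0.27) and Myl3 (1.83 ± 0.25). Tnnc1 did not pass (-0.28 ± 0.28, adjusted p = 0.516). The first step after day 5 in which a rise was called was thus that to day 6 for Tnnc1, to day 7 for Myh7, Tnni1 and Myl4, to day 8 for Tnnt2, and to day 10 for Myh6, Myl7, Myl3, Actc1 and Ttn. A step without a call may still hold a rise: Tnnt2 from day 5 to day 6 (log2 3.59 ± 1.04, adjusted p = 0.069) passed in 2 of 9 alternatives, and from day 7 to day 8 Myh6 (1.83 ± 0.57, 0.0585) passed in 3 and Myl7 (1.31 ± 0.52, 0.125) in 1. Day 9 was not sampled.

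As a straight line over days 5 to 10, 8 of the 9 members tested rose (27.9% of 12948 genes did) and 0 fell (26.6%). Tnnt2 did not pass the filter of this 10-library fit. The slopes ran from 0.40 ± 0.09 log2 units per day for Myl3 to 1.63 ± 0.14 for Tnni1, and Ttn did not pass (0.40 ± 0.17, adjusted p = 0.071). Within WT 8 members rose (17.6% of all genes did) and within RepB 6 did (18.8%), but the difference between the lines, tested itself, was called for 0 members and 0 of all genes (0%), and 0 members had an unadjusted p under 0.05. The slope difference, RepB less WT, was -0.40 ± 0.34 for Actc1, -0.27 ± 0.16 for Myl4 and 0.02 ± 0.18 for Myl3. Without day 10, the common slope turned to -0.65 for Ttn, -0.31 for Actc1 and -0.023 for Myl3.

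The comparison of RepB with WT asks whether cells with the Repeat B edit differ from wildtype cells as they differentiate. Over days 5 to 10, 2 members were lower in RepB (0.771% of all genes were) and 0 were higher (1.51%). These were Myh7 (log2 -1.10 ± 0.22, adjusted p = 0.0243) and Myl3 (-0.83 ± 0.17, 0.0251). The median over the members was -0.45, against 0.00 for all genes. The differences of the other members did not pass: Tnnt2 -0.83 (adjusted p = 0.128), Myh6 -0.75 (0.256), Ttn -0.45 (0.353), Tnnc1 -0.44 (0.359), Myl7 -0.39 (0.63), Myl4 -0.30 (0.624), Actc1 -0.10 (0.916) and Tnni1 -0.09 (0.91). Without day 10, Actc1, Tnni1 and Myl4 stood at 0.295, 0.25 and 0.006. The call of Myh7 was lost without day 6, 7 or 10 (adjusted p from 0.00118 to 1 over its 13 alternatives), and that of Myl3 without day 5, 6, 7 or 10 and with DESeq2 (0.00945 to 1). At day 0, from 1 library each, 1 member was past 1.5-fold higher in RepB (2.1% of all genes were), Ttn, and 1 lower (5.49%), Myl3 with 2 counts in RepB and 12 in WT. Taken less the day 0 difference, 0 members were called (0.0132% of all genes were lower and 0.0198% higher), and Ttn alone had an unadjusted p under 0.05 (log2 -1.54 ± 0.47, adjusted p = 0.378).

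Day by day, the members lay on both sides of the WT level until day 7 and below it at days 8 and 10. The log2 ratio of RepB to WT, computed on CPM plus 0.5, had a median over the members of -0.16 at day 5, 0.34 at day 6 and -0.16 at day 7, and of -0.94 at day 8 and -0.96 at day 10. The medians of all genes tested were -0.04, 0.00, -0.01, -0.07 and -0.02 on these days. At day 5, 0 members were past 1.5-fold higher in RepB (5.33% of all genes were) and 2 lower (7.86%), at day 6 3 higher (6.94%) and 1 lower (6.69%), and at day 7 2 higher (5.55%) and 2 lower (7.19%). At day 8, 8 members were past 1.5-fold lower in RepB (12.9% of all genes were) and 0 higher (11.1%), and at day 10, 9 were lower (6.12%) and 0 higher (7.51%). The exceptions were Tnni1 on both days and Tnnc1 at day 8, whose log2 ratio of -0.57 lay just short of the limit. All 10 ratios were below 0 on both days, where 55.6% of all genes were at day 8 and 53.4% at day 10. The ratio of Tnni1 at day 8 (-0.04) was above the median of all genes. With 1 library per line, these daily counts describe the libraries and carry no test.

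**Figure D3:**
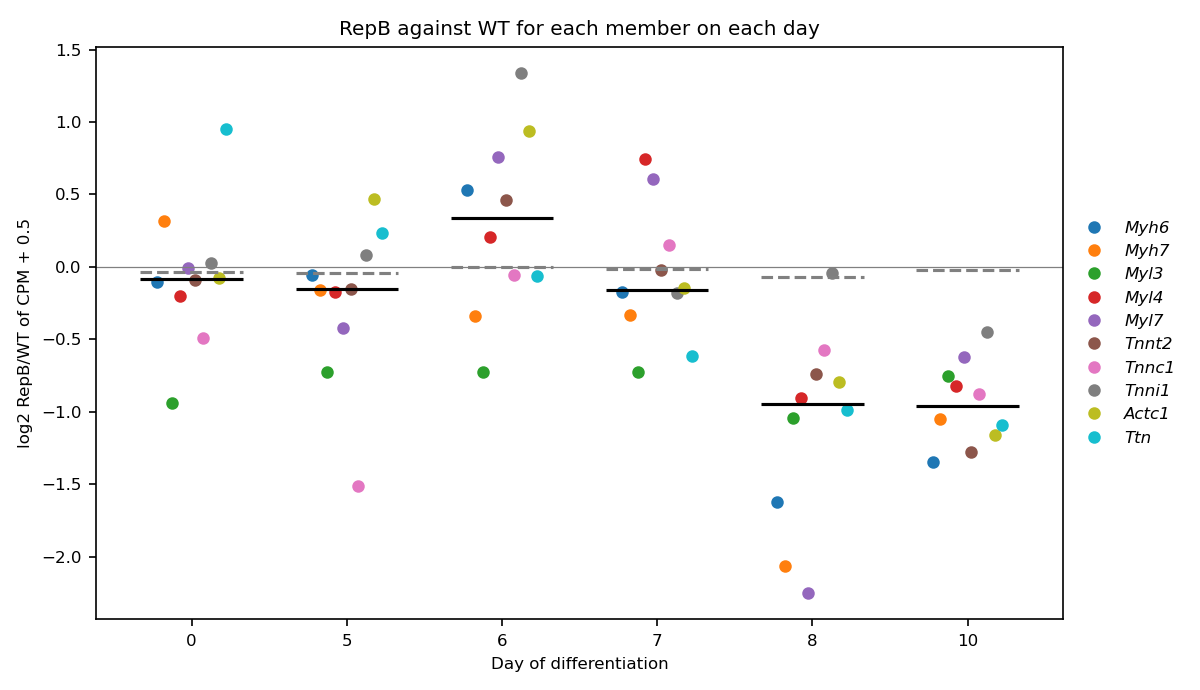
Log2 ratio of RepB to WT, on CPM plus 0.5, for each cardiac sarcomere gene (coloured points) on each day; black bars are the medians of the 10 genes and dashed grey bars those of all 15179 genes tested. The points scatter on both sides of 0 up to day 7 and lie below 0 at days 8 and 10.

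At day 8 the WT level was 5.32 times the RepB level for Myl7 (95% interval 2.95 to 10.6), 4.40 times for Myh7 (2.93 to 6.87) and 3.70 times for Myh6 (1.58 to 10.6). It was 2.23 times for Myl3, 2.20 for Ttn, 1.91 for Myl4, 1.80 for Actc1, 1.70 for Tnnt2 and 1.5 for Tnnc1. For these 9 genes the interval excluded 1, narrowly so for Ttn (1.01 to 5.46), and for Tnni1 it did not (1.03, 0.793 to 1.34). The RepB day 8 library was the smallest, with 12 counts of Myl7 against 138 in WT and 6 of Myh6 against 48. At day 10, with more counts, the intervals of all 10 genes excluded 1. The WT level was then 2.57 times that of RepB for Myh6 (2.13 to 3.13), 2.45 for Tnnt2 (2.00 to 3.02), 2.24 for Actc1 (1.95 to 2.58), 2.16 for Ttn and 2.08 for Myh7. The smaller ratios were 1.86 for Tnnc1, 1.77 for Myl4, 1.71 for Myl3, 1.54 for Myl7 and 1.37 for Tnni1 (1.20 to 1.57). The intervals cover counting error and not the spread between cultures.

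A fit with separate line effects for days 5 to 7 and for days 8 and 10 was chosen after this split had been seen. It had 3 residual degrees of freedom. Over days 5 to 7, 0 members were called lower in RepB (2.36% of all genes were) and 0 higher (1.89%), and 2 had an unadjusted p under 0.05, Myl3 (log2 -0.81, adjusted p = 0.0657) and Actc1 (0.58, 0.0886). Over days 8 and 10, 6 members were lower in RepB (0.369% of all genes were) and 0 higher (0.764%), with a median of -1.05 against 0.00 for all genes. These were Myh6 (-1.42 ± 0.23, adjusted p = 0.0106), Myh7 (-1.36 ± 0.19, 0.00786), Ttn (-1.09 ± 0.23, 0.0391), Actc1 (-1.07 ± 0.21, 0.0301), Tnnt2 (-1.05 ± 0.21, 0.0301) and Myl4 (-0.83 ± 0.18, 0.0471). Myl7 (-1.05, adjusted p = 0.0934), Myl3 (-0.86, 0.12), Tnnc1 (-0.68, 0.176) and Tnni1 (-0.24, 0.602) did not pass. Without day 7, 8 or 10 and with DESeq2, 2 of the members were called.

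The difference between those periods, tested itself, was called for 0 members (0% of all genes were lower and 0.0264% higher), while 7 had an unadjusted p under 0.05. It came closest for Actc1 (-1.65 ± 0.28, adjusted p = 0.056), followed by Myh6 (-1.60 ± 0.36, 0.0797) and Myl4 (-1.32 ± 0.30, 0.0797). For Actc1 the adjusted p ran from 7.23e-08 (no low-count filter) to 0.256 (without day 6), and it passed in 7 of 11 alternatives. The value of Myl3 was -0.05 ± 0.36.

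The other genes of the pathway, given as lists chosen with earlier results known, behaved as follows. Of 25 further sarcomere and Z-disc genes 20 were tested. From day 8 to day 10, 15 of them rose (11.1% of all genes did) and 1 fell (9.36%). Tpm1, tropomyosin, was already at 707 CPM in WT at day 5 and stood at 1341 CPM in WT against 1245 in RepB at day 10. Of these 20 genes, 11 were past 1.5-fold lower in RepB at day 10 (6.12% of all genes were) and 0 higher (7.51%), with a median of -0.60. At day 8, 3 were past 1.5-fold lower (12.9% of all genes were) and 4 higher (11.1%), with a median of -0.22. Over days 5 to 10, 1 of them was called lower (0.771% of all genes were) and 0 higher (1.51%). That gene, picked here because it was called, was Smyd1, a methyltransferase needed for myofibril assembly (log2 -0.93 ± 0.19, adjusted p = 0.0248). Smyd1 stood at 18.3 and 53.4 CPM in WT at days 8 and 10 and at 8.35 and 23.8 CPM in RepB. Tpm2, another tropomyosin, stood at 183 CPM in WT against 177 in RepB at day 10, and Cryab, a small heat shock protein of the Z-disc, at 162 and 151 CPM.

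Transcription factors of the heart reached very different levels by day 7. All 13 on the list were tested. Over days 5 to 10, 9 stood higher than at day 0 (31.7% of all genes did) and 2 lower (32.3%). The summed level of the 13 at day 7 was 1129 CPM in WT and 1356 CPM in RepB. Most of this sum came from Hand1, Gata4 (140 CPM in WT) and Tbx3, which is also on the list of naive pluripotency genes and stood at 268 CPM in WT at day 0 and 244 CPM at day 7. Mef2c, at 0.712 and 0.226 CPM, and Tbx18, at 0.089 and 0.226 CPM, were near the floor at day 7. Hand1 stood at 469 CPM in WT against 672 in RepB at day 7, and Gata6 at 88.1 and 76.1 CPM. Nkx2-5, a defining factor of cardiac cells, reached 21.8 CPM in WT and 14.2 CPM in RepB at day 8. Over days 5 to 10, 0 of the 13 were called in either direction between the lines, with a median of -0.04. Over days 8 and 10, 1 was called lower (0.369% of all genes were) and 0 higher (0.764%). It was Mesp1, a factor of early mesoderm named here because it was called, at 13.7 CPM in WT against 2.50 in RepB at day 8. By day 10 Mesp1 had dropped below the floor in both lines, with RepB (0.267 CPM) no longer under WT (0.098). Its lower level in RepB over these days thus rests on day 8. At day 10, 0 of the 13 were past 1.5-fold lower (6.12% of all genes were) or higher (7.51%). Of the 13, 11 were lower in RepB on that day (53.4% of all genes were), with a median of -0.30. At day 8, 3 were past 1.5-fold lower (12.9% of all genes were) and 1 higher (11.1%), with a median of 0.04. Of 14 genes of calcium handling, conduction and cardiac hormones, 10 were tested. From day 8 to day 10, 3 of them rose (11.1% of all genes did) and 0 fell (9.36%). Between the lines 0 were called over days 5 to 10. At day 10, 9 of these 10 were lower in RepB (53.4% of all genes were), with a median of -0.26. On that day 3 of the 10 were past 1.5-fold lower (6.12% of all genes were) and 0 higher (7.51%). Slc8a1, the sodium-calcium exchanger, stood at 63.1 CPM in WT against 31.5 in RepB on that day. Sln, an atrial regulator of the calcium pump, had 0 counts in each of the 12 libraries. Nppa, the atrial hormone gene, stood at no more than 0.378 CPM, and Pln, phospholamban, at no more than 1.77 CPM.

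The label of the members as cardiac was checked against other muscle. Skeletal muscle's defining factors were at or near 0: Myog stood at 0 CPM at days 8 and 10 in both lines and at no more than 0.287 CPM anywhere, and Myod1 at no more than 1.01 CPM. Of 16 skeletal muscle genes, 6 were tested. From day 8 to day 10, 0 of them rose (11.1% of all genes did) and 2 fell (9.36%). Against day 0, 2 of the 6 stood higher over days 5 to 10 (31.7% of all genes did) and 3 lower (32.3%). Those higher were fast skeletal troponins, Tnnt3 (log2 4.66 ± 0.39, adjusted p = 5.83e-07), which went from 0.237 CPM at day 0 to 25.6 CPM at day 8 in WT, and Tnni2 (3.46 ± 0.69, 0.000865), which stayed at or below 2.96 CPM. Mylpf, a fast light chain, was called higher in RepB over days 5 to 10 (log2 0.69 ± 0.14, adjusted p = 0.0288). Smooth muscle genes were abundant at day 10, with a summed level of 2652 CPM in WT and 2874 CPM in RepB, led by Acta2 at 1931 and 2069 CPM. Of the 9 smooth muscle genes 0 were called lower or higher in RepB over days 5 to 10. From day 8 to day 10, 7 of the 9 rose and 1 fell, against 11.1% and 9.36% of all genes. In that step 6 of 7 fibroblast, 5 of 6 visceral endoderm, 4 of 6 endothelial and 1 of 6 blood genes rose, and 0 of these fell. The late rise was thus not particular to the members.

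Markers of blood, visceral endoderm, endothelium and fibroblasts stood higher in RepB at days 8 and 10 by their medians, where the members stood lower. The median of the 6 neural markers lay lower in RepB on both days, with single markers on either side. The summed level of 6 blood genes was 98.7 CPM in WT and 753 CPM in RepB at day 8 and 380 and 630 CPM at day 10. All 6 were past 1.5-fold higher in RepB at day 8 (11.1% of all genes were) and 3 at day 10 (7.51%). The summed level of 6 visceral endoderm genes was 33.5 and 112 CPM at day 8 and 155 and 359 CPM at day 10, with 6 and 4 past 1.5-fold higher. That of 6 endothelial genes was 112 and 235 CPM, then 389 and 507 CPM, with 5 and 2. Over days 8 and 10, RepB was called higher for 3 blood, 3 visceral endoderm, 2 endothelial and 4 of 7 fibroblast genes. It was called lower for 0 of these. Of all genes, 0.764% were called higher and 0.369% lower. The fibroblast genes summed to 1266 and 2754 CPM at day 8 and to 8837 and 13330 CPM at day 10. Of 8 naive pluripotency genes 5 were called higher in RepB over days 5 to 10 (1.51% of all genes were). Of 6 neural genes 4 were called lower (0.771%). In the fit over days 8 and 10, 2 of the neural genes were called lower (0.369% of all genes were) and 0 higher (0.764%). The median of the neural genes in that fit was -1.10. Past 1.5-fold lower in RepB were 4 of them at day 8 (12.9% of all genes were) and 3 at day 10 (6.12%). Those called were Sox1, at 16.9 CPM in WT against 0.278 in RepB at day 8, and Pax6, at 7.60 against 0.278 CPM, both named because they were called. Since CPM are shares of a library, a larger share of some genes leaves less for others. The part of these differences in the lower level of the members was not tested. With all libraries thinned to the smallest total, Myh7 and Myl3 passed over days 5 to 10.

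Per exon length, levels can be compared between genes. In RPKM (CPM per kilobase of summed exon), the order in WT at day 10 was Myl7 (130), Actc1 (102), Myl4 (97.5), Tnni1 (93.9), Tnnt2 (57.5), Tnnc1 (45.9), Myh7 (25.5), Myl3 (24.5), Myh6 (14.0) and Ttn (0.53). Actc1 and Myl4, Myl4 and Tnni1, and Myh7 and Myl3 had overlapping intervals, and the other neighbours in the order did not. In RepB the order was Myl7 (84.2), Tnni1 (68.5), Myl4 (55.0), Actc1 (45.3), Tnnc1 (24.7), Tnnt2 (23.5), Myl3 (14.3), Myh7 (12.3), Myh6 (5.45) and Ttn (0.246). There, the neighbours from Myl7 to Actc1 overlapped pairwise, as did Tnnc1 and Tnnt2, and Myl3 and Myh7. Actc1 thus went from the second place in WT to the fourth in RepB. Ttn came last by far in both lines, with 104320 bases of summed exon in the table against 590 to 6079 for the other members.

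**Figure D4:**
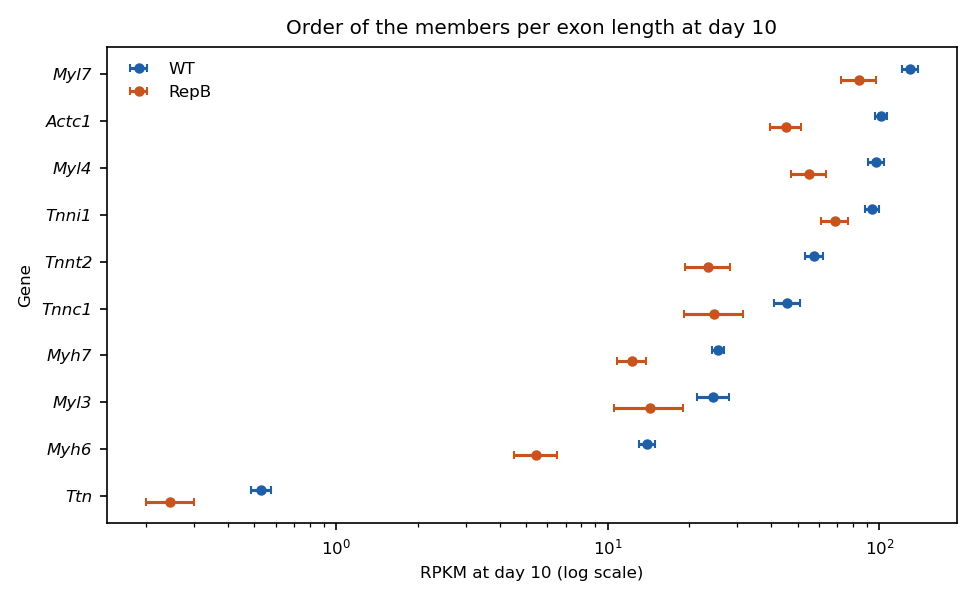
RPKM at day 10 (log scale) of each cardiac sarcomere gene, ordered by its WT value, with WT in blue and RepB in orange and exact 95% Poisson bars. Myl7 leads and Ttn comes last in both lines, and each RepB point lies left of its WT point.

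Shares within pairs of related genes show which isoform was used, and do not depend on the library total. They were computed from counts per exon length, with exact Clopper-Pearson 95% intervals, and are a description, since reads of close relatives can be split or lost. Myh6 gave 81.6% (67.9 to 91.2) of the Myh6 and Myh7 signal in WT at day 0, 79.7% at day 5 and 62.4% at day 6. At day 7 it gave 16.1% (9.28 to 25.1), at day 8 16.2% and at day 10 35.5% (33.6 to 37.4). In RepB the shares were 73.3%, 81.8%, 79.1%, 17.2%, 18.7% and 30.8% (26.3 to 35.5). The turn to the beta heavy chain thus fell between days 6 and 7 in both lines, and the intervals of the lines overlapped on each of the 6 days.

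Actc1 gave 7.35% of the signal of Actc1 and Acta1, the skeletal actin, in WT at day 0. On days 5, 6, 7 and 8 it gave 36.5%, 34.6%, 16.1% and 24.5%, and at day 10 90.4% (88.9 to 91.7). In RepB it gave 8.61%, 45.4%, 35.9%, 11.1%, 17.0% and 86.7% (82.3 to 90.3). Skeletal actin was thus the larger of the pair up to day 8 and cardiac actin at day 10. In RepB at day 5 the interval (37.6 to 53.4) left the order open. Acta1 itself stood at 35.8 CPM in WT against 49.2 in RepB at day 7 and at 17.0 and 10.9 CPM at day 10. Tnni1 gave 22.1% of the Tnni1 and Tnni3 signal in WT at day 0, 3.21% at day 6, 76.2% at day 8 and 96.3% at day 10, and 17.1%, 12.2%, 87.6% and 95.9% in RepB. Tnni3, the troponin I of the adult heart, stood at 2.94 CPM in WT against 2.40 in RepB at day 10.

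On days 0, 8 and 10 Tnnt2 gave 8.13%, 80.6% and 96.3% (94.5 to 97.7) of the Tnnt2 and Tnnt1 signal in WT, and 8.07%, 70.1% and 89.2% (81.6 to 94.4) in RepB. Tnnt1 is the slow skeletal troponin T, and its level at day 10 was 2.25 CPM in WT and 2.94 CPM in RepB. This was the pair in which the day 10 intervals of the lines lay just apart. Myl4 gave 88.7% of the Myl4 and Myl3 signal in WT at day 0, 14.8% (9.29 to 21.9) at day 5, 58.6% (49.6 to 67.1) at day 7 and 79.9% at day 10. In RepB the shares were 97.3%, 20.3%, 81.2% (69.5 to 89.9) and 79.4%, so that at day 7 RepB had the higher share with intervals apart. Tnnc1 made up 99.7% and 98.5% of its pair with the fast skeletal Tnnc2 at day 10, and Myl7 99.4% and 99.0% of its pair with the ventricular Myl2. Myl2 stood at 0.49 CPM in WT against 0.53 in RepB at day 10, so nearly all of this pair's signal came from the atrial gene.

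**Figure D5:**
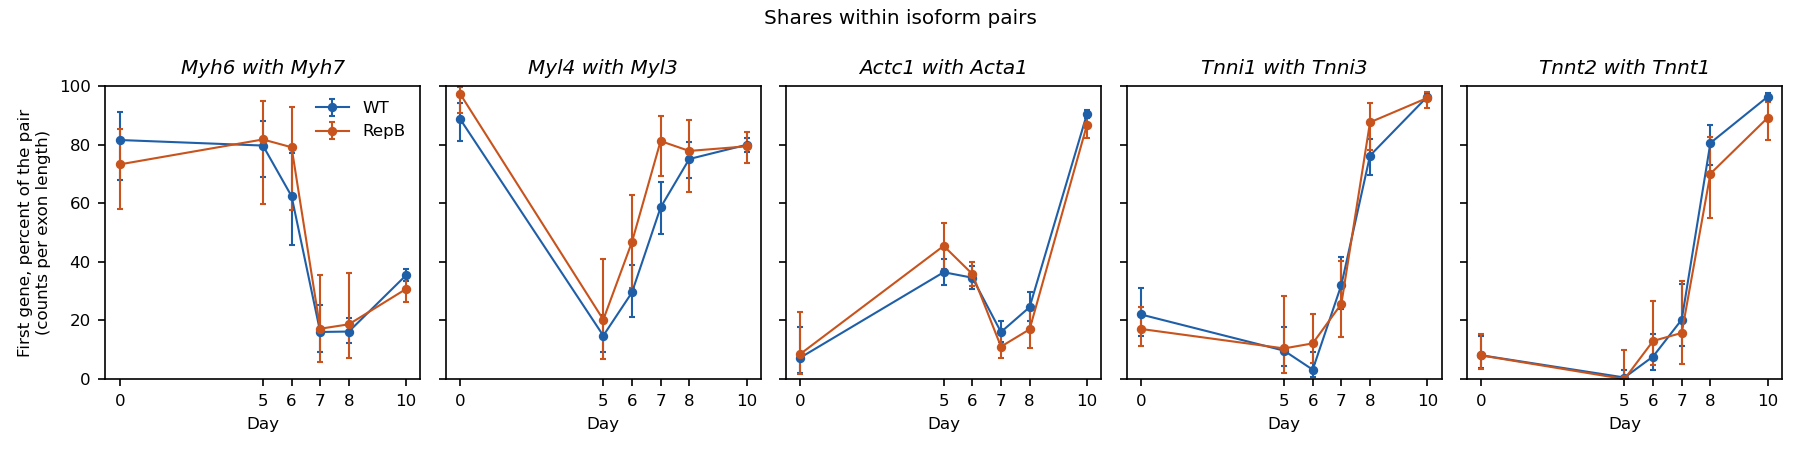
Share of the first gene of each pair in the signal of both, in percent of counts per exon length, by day, for WT (blue) and RepB (orange) with exact 95% Clopper-Pearson bars. Myh6 gives way to Myh7 between days 6 and 7, and by day 10 Actc1, Tnni1 and Tnnt2 make up most of their pairs in both lines.

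The members shared their course to different degrees. Over the 12 libraries, the log2 level (CPM plus 0.5) of a member correlated with the mean of the other 9 with Pearson's r from 0.53 (Ttn) to 0.94 (Myh7). Among pairs, r ran from -0.02 (Tnnc1 with Ttn) to 0.98 (Tnnt2 with Tnni1). The libraries share the time course, so these values describe the course and are not tests. Among the 12 genes outside the members with the course most like their mean, taken from genes with a mean of at least 2 CPM, were Hs3st1, Alpk2, Ctla2a, Glt8d1, Bves, Pigk, Ilvbl, Fkbp10, 5033428I22Rik, Hps5 and Gata5, with r from 0.979 down to 0.958 (n = 12 libraries). Alpk2, an alpha kinase gene, went from 0 CPM at day 0 in both lines to 16.2 CPM in WT and 6.14 CPM in RepB at day 10. Gata5, a cardiac and endodermal transcription factor, went from 0.06 and 0.07 CPM to 28.0 and 21.4 CPM, and Bves, a membrane gene of muscle, from 1.60 and 1.58 to 28.9 and 21.6 CPM. None of these 12 genes was called between the lines over days 5 to 10 (adjusted p from 0.178 for Alpk2 to 0.933 for Ilvbl).

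Reads over strain variants gave a second readout, the share of the allele named cas in the table. Pooled over days 5 to 10, the cas share of Myl3 (chromosome 9; mm9, first listed exon 110666185 to 110666404) was 53.0% in WT (46.6 to 59.3) and 63.3% in RepB (49.9 to 75.4, from 60 allelic counts). That of Myl4 (chromosome 11; first listed exon 104411977 to 104412073) was 55.4% (50.3 to 60.5) and 56.6% (46.2 to 66.5). Both were thus expressed from both alleles, with intervals that overlapped between the lines. Genes within 2000000 bases of them had median cas shares of 48.8% to 50.6%. Myh6 (chromosome 14; 55560758 to 55560838) gave 24.6% in WT (20.9 to 28.6) and 25% in RepB (16.0 to 35.9), and its neighbour Myh7 (55589525 to 55589647) gave 7.98% (6.21 to 10.1) and 4.76% (1.77 to 10.1).

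The remaining 6 members were read almost wholly from the other allele, mus, in both lines. The cas shares in WT and RepB were 1.10% and 4.76% for Tnnt2 (chromosome 1, 137732911 to 137733023). They were 0.207% and 0.69% for Tnni1 (chromosome 1, 137695998 to 137696073). For Tnnc1 (chromosome 14, 32021498 to 32021564) they were 0.895% and 0.813%. Actc1 (chromosome 2, 113873025 to 113873345) gave 1.20% and 0%, the latter from 0 of 274 counts with an upper limit of 1.34%. Myl7 (chromosome 11, 5796640 to 5796784) had 0 cas counts of 81 and of 23, with upper limits of 4.45% and 14.8%. Ttn (chromosome 2, 76542041 to 76543386) had 0 of 314 and of 75, with upper limits of 1.17% and 4.8%. Genes within 2000000 bases of these 6 and of Myh6 and Myh7 had median cas shares of at most 1.35% in either line. The genes around them thus had low shares too, and the intervals of Myh6 and Myh7 in WT lay above the pooled shares of their neighbours, 4.21% and 4.30%. No member had 10 allelic counts in each of the 10 libraries of days 5 to 10, so the planned sign-flip test between the lines could be run for 0 of them.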

How the data were processed

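PolyA RNA-seq counts of 12 mouse ES cell libraries (WT and RepB at 6 days) were analysed. The other 21 samples of the series were not analysed here. The authors deposited whole-number counts per gene, without normalization, in total and per allele (cas and mus), for 24391 genes. The table's other unit is the summed exon length in bases. Per the submitters' processing notes, mm9, Novoalign, TopHat, SAMtools, bedtools and featureCounts were used, with no versions or roles. Whether counting used the strand is not given in the sources used here, so genes that overlap an antisense gene are uncertain, as are close relatives such as Myh6 and Myh7 or Actc1 and Acta1. The labels do not say whether the cultures were independent. The 6 count columns of a further day, day 14, had no matching RNA sample and were not used.

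CPM, RPKM, shares and exact 95% intervals were computed from the deposited counts. Fold intervals between 2 libraries are conditional binomial intervals. Counts were tested in R 4.3.3 with edgeR 4.0.16 (TMM, filterByExpr on genotype-by-stage groups, quasi-likelihood F test, Benjamini-Hochberg adjustment over all genes tested, threshold 0.05). A single 12-library fit had day as a factor and line effects at day 0 and over days 5 to 10 (4 residual degrees of freedom). 10-library fits gave slopes (7) and their difference (6). With 1 library per line and day, p-values of RepB against WT measure only how steady a difference was over these days. Those between days set a change against the variation of the ratio of the lines, and those of slopes against the scatter around straight lines. The spread may be technical. limma 3.58.1 (voom), DESeq2 1.42.0, other scaling, no filter, thinning and leaving out days were alternatives. On simulated counts of the RepB against WT fit, 93.5% of 200 genes changed by 1 log2 unit were recovered with 10 false calls among 14984 genes. The changed genes were drawn above a minimum level, with a fixed spread and the same difference on each of days 5 to 10. The rate therefore does not cover members near the floor or with a difference that varied by day.

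All 10 members were named, besides up to 4 genes of each of 12 companion lists by highest mean CPM, isoform partners, and the 12 genes with the most similar course. Members and lists were chosen with earlier results of these data known. Steps between days, single-day ratios, the split at day 8 and further genes were chosen after values were seen. Of the 12 genes with the course most like that of the members, 1 is not reported here.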

Additional observations from a re-analysis of the deposited data

How the results depend on the processing

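The day was used as a replicate block, since both lines were sampled on the same days. With no replicate block (no day term), 0 members were lower in RepB over days 5 to 10 against 2 with it, and 0 of all genes were called against 229 higher and 117 lower. With 1 genotype effect over all 6 days 0 members were lower, with DESeq2 1, and leaving out each day in turn gave 0 to 2. For all genes these counts ran from 30 to 378 higher and from 8 to 366 lower over the left-out days, and stood at 350 and 242 without a filter, at 71 lower after thinning, and at 32 and 18 with 1 genotype effect. Over days 5 to 10 against day 0, leaving out a day gave 4 to 8 members higher and 0 to 1 lower. For day 6 against day 5, 2 members rose without a filter, 0 with limma-voom and 0 to 2 with a day left out. For day 7 against day 6, 1 member fell with limma-voom and 1 after thinning, against 2. For the common slope, leaving out a day gave 5 to 10 members higher and 0 to 1 lower, for WT 5 to 8 higher, and for RepB 0 to 1 lower.

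In the fit split at day 8, no filter gave 1 member higher and 1 lower over days 5 to 7, thinning gave 1 higher, and leaving out a day 0 to 1 of each, against 0. Over days 8 and 10, DESeq2 gave 2 members lower and leaving out a day 2 to 7, against 6. For the difference of the periods, RLE, library totals, DESeq2 and thinning gave 1 member lower each, no filter 5, and leaving out a day 0 to 2, against 0. Over all genes tested, the counts over days 8 and 10 (116 higher and 56 lower) ran from 10 to 803 and from 7 to 306 (243 at most with a day left out), those over days 5 to 7 (287 and 358) from 15 to 545 and from 21 to 792, and those of the difference (4 and 0) from 1 to 830 and from 0 to 279. With a pseudocount of 2 CPM, 1 member was past 1.5-fold lower in RepB at day 5, 1 higher and 0 lower at day 6, and 1 higher and 0 lower at day 7. With 0.1 CPM, 5 were higher at day 6. The counts at days 8 and 10 stayed within 1.5 times under both.

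Some log2 values of members changed sign. When each day was left out in turn, the difference of RepB from WT over days 5 to 10 ran from -0.464 to 0.295 for Actc1, from -0.606 to 0.006 for Myl4 and from -0.219 to 0.25 for Tnni1, the highest each time without day 10, and DESeq2 gave 0.06 for Tnni1. Less the day 0 difference, it ran from -0.252 to 0.483 for Actc1, from -0.451 to 0.159 for Myl4 and from -0.317 to 0.151 for Tnni1, limma-voom gave -0.088 for Actc1, and thinning gave -0.049 for Myl3 and -0.454 for Tnnc1. Over days 5 to 7 it ran from -0.1 to 0.371 for Myh6, from -0.12 to 0.643 for Tnnt2, from -0.503 to 0.076 for Tnnc1, from -0.124 to 1.369 for Tnni1 and from -0.229 to 0.099 for Ttn. There, thinning gave -0.092 for Myh6, -0.144 for Tnnt2, -0.397 for Tnni1 and 0.112 for Ttn, and Ttn was at 0.003 with RLE and 0.029 with limma-voom. Over days 8 and 10 Tnni1 ran from -0.454 to 0.049. The difference of the periods ran from -0.261 to 0.029 for Myl3 and was 0.124 for Tnni1 after thinning. Against day 0, Myl4 ran from -0.17 to 1.261 and Ttn from -0.137 to 0.845, both lowest without day 10, and from day 5 to day 6 limma-voom gave -0.149 for Tnni1.

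Slopes turned without day 10. Leaving out each day gave common slopes from -0.023 to 0.565 for Myl3, from -0.307 to 0.708 for Actc1 and from -0.652 to 0.682 for Ttn. The slope in WT ran from -0.093 to 0.95 for Actc1 and from -0.463 to 0.785 for Ttn, and that in RepB from -0.621 to 0.489 for Actc1, from -0.416 to 1.10 for Myh6, from -0.083 to 0.577 for Myl3 and from -0.962 to 0.535 for Ttn. The slope difference ran from -0.094 to 0.025 for Myl3 and from -0.274 to 0.162 for Tnnc1, with -0.029 for Myl3 after thinning and 0.039 for Tnnc1 with DESeq2. The causes were not tested. No other direction of a member reversed in the alternatives run. Shares of isoform pairs without length scaling, a minimum of 20 allelic counts and the other pseudocounts for the genes most alike kept their values within the limits set. RepB libraries from day 5 on, and Tnnt2, Tnnc1 and Actc1 at day 0 and day 5, are limited most by depth.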
